A study of Mus musculus with 3 samples.

Results

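The cytochrome P450 and conjugation enzymes are the gene families with which kidney and liver oxidise, and then couple to a carrier, drugs, hormones, lipids and reactive aldehydes. They were taken here by name, as the probe sets with 1 platform gene symbol of the Cyp, Gst, Ugt1, Ugt2, Ugt3, Sult, Aldh or Fmo families. This gave 162 of 21789 such probe sets, which stand for 159 of 19938 genes, namely 87 Cyp, 20 Gst, 10 Ugt, 16 Sult, 21 Aldh and 5 Fmo genes. The rule uses names and no measured value. No Ugt1 gene is among them, since its probe set carries several symbols, and 20 probe sets of these families with several symbols were left out. Aldh3b3 and Gstm3, the 2 genes on several probe sets, are given by their brightest.

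The cells came from adult male Ren1c-YFP mice of unspecified strain, which express yellow fluorescent protein (YFP) under control of the renin gene Ren1c. For 2 weeks all mice had eaten low-salt chow and drunk 0.5 mg/ml captopril, which blocks angiotensin-converting enzyme. The renal cortex was digested, YFP-positive cells were sorted, and their RNA was amplified and measured on Affymetrix arrays of 1 colour. There were 3 arrays, replicates 2, 4 and 5, in 1 group and with no control samples, so the values are levels in these sorted cells and no effect of captopril or salt can be read from them. That each sample came from its own animal is not said outright in the labels. The p-values therefore cover only how far these samples differ, which may be technical.

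Cytochromes P450 are haem enzymes that insert oxygen into a substrate with electrons from a reductase, and in kidney they are known above all for turning arachidonic acid into vasoactive epoxides and hydroxy acids. Flavin monooxygenases (Fmo) oxidise nitrogen and sulfur, and aldehyde dehydrogenases (Aldh) turn aldehydes into acids. Glutathione transferases (Gst), glucuronosyltransferases (Ugt) and sulfotransferases (Sult) then attach glutathione, sugar acids or sulfate, and the proximal tubule is known as the main site of these enzymes in the nephron.

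Values are log2 signals, and values after ± are SDs over the 3 arrays. A gene was called above background where limma's one-sided test put its mean over the arrays' background levels at a Benjamini-Hochberg adjusted p, across all genes, under 0.05. Each array's level was set by its 1027 olfactory receptor genes, at their 95th percentile, which was 6.20, 6.32 and 6.50 in replicates 2, 4 and 5. Probe affinity also sets a signal, so each gene is read against background and not against another gene. Many of these genes have close paralogues whose transcripts may bind the same probes, which the deposited values cannot separate.

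The identity of the samples was checked on marker genes. All 4 measured renin cell markers were called, Gja5 among them and Rgs5 shared with the mural list, while Ren1 and Akr1b7 were not analysed here. All 9 smooth muscle and mural markers were called, but so were 17 of 19 proximal tubule, 6 of 7 thick ascending limb and 9 of 9 collecting duct markers. Of the endothelial markers 5 of 8 were called, and of the macrophage markers 3 of 6 (Tyrobp, Cx3cr1 and H2-Aa), against 37.3% of all genes. The macrophage markers Cd68 (limma adjusted p = 0.617), Adgre1 and Csf1r were not called, and Adgre1 and Csf1r had means under the level. Of the hepatocyte markers 2 of 8 were called (Apoa1 and Apoa2), with Alb under the level, and of the adrenal cortex markers 1 of 6 (Fdx1), with Star, Hsd3b1 and Mc2r under it. The enzymes below were thus measured in samples that held tubule, endothelial and some macrophage marker transcripts besides those of renin cells. In such bulk samples fewer cells of a type and less RNA per cell cannot be told apart, and which cells a transcript came from was not tested.

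Of the 159 genes 50 were called (31.4%), against 37.3% of all 19938 genes, and their median signal was 5.86, against 6.33 over all genes. At this level the share called was below that of all genes, but the order depends on the level. With the level at the 99th percentile of the olfactory receptor genes 30 of the 159 were called (18.9%), against 16.6% of all genes, and with a level from vomeronasal receptor genes 81 (50.9%), against 65.9%. By family, with no test of the difference, the share called at the 95th percentile was 23.0% of Cyp (20 of 87), 12.5% of Sult (2 of 16), 40% of Ugt (4 of 10), 47.6% of Aldh (10 of 21), 55.0% of Gst (11 of 20) and 60.0% of Fmo (3 of 5). At an unadjusted p under 0.05 there were 52 of the 159, against 8086 of all 19938 genes. All 50 called genes were above the level on each of the 3 arrays. Of the 109 others, 97 had means under the level and 12 had means above it without passing. Each family held both called genes and genes with means under the level.

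**Figure D1:**
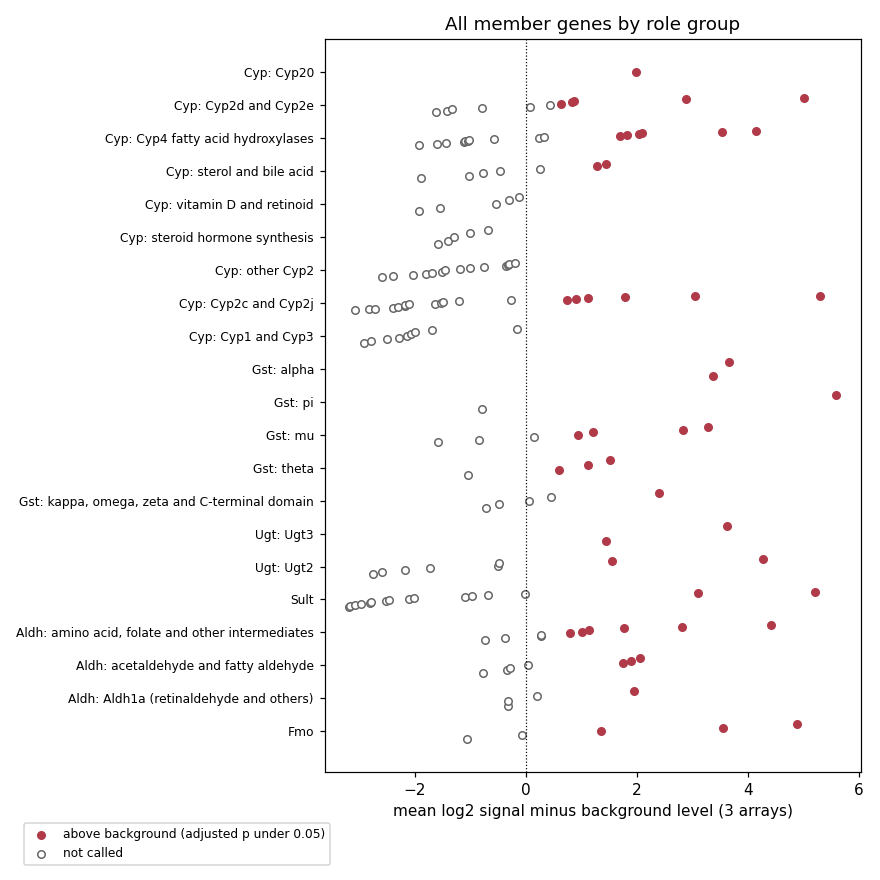
Mean log2 signal minus background level over the 3 arrays (x axis) for the 159 genes, grouped by family and role (y axis). Filled points are the 50 genes called above background by limma, open points the 109 others, and the dotted line is the background level. At this background level the Cyp1 and Cyp3, other Cyp2, steroid hormone and vitamin D and retinoid groups hold no called gene.

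The Cyp2j and Cyp2c genes encode the epoxygenases, which convert arachidonic acid to epoxides that dilate vessels and act on tubular sodium transport. Of 6 Cyp2j genes 5 were called (83.3%), against 1 of 13 Cyp2c genes (7.69%) and 37.3% of all genes. Cyp2j5, an epoxygenase known to be abundant in mouse kidney, had signals of 11.83, 11.67 and 11.40 in replicates 2, 4 and 5, 5.29 above background (limma adjusted p = 4.61e-07). Its paralogue Cyp2j13 stood at 9.47, 9.72 and 8.96, and Cyp2j11 at 8.33, 8.21 and 7.86. These 3 genes were far above the level on every array and lowest in replicate 5. Cyp2j6 had 7.38, 7.71 and 6.65 and Cyp2j9 had 6.63, 7.95 and 7.82, the first lowest in replicate 5 and the second in replicate 2. Cyp2j12, which lies in the same cluster, was under the level on every array, at 4.58, 4.64 and 4.92. The single called Cyp2c gene was Cyp2c23, the epoxygenase formerly named Cyp2c44, at 7.20, 7.11 and 6.96 (limma adjusted p = 0.00685). The other 12 had means from 3.27 (Cyp2c38) to 6.08 (Cyp2c66), and Cyp2c66 passed the level in replicate 5 only, with 5.73, 5.64 and 6.88. Cyp2j6 missed the threshold with replicate 2 left out (limma adjusted p = 0.0789) and with replicate 4 left out (0.0519).

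Of the Cyp2d and Cyp2e genes, the first a large rodent cluster related to the human drug-metabolising enzyme gene CYP2D6, 5 of 11 were called (45.5%). The share of all genes was 37.3%. Cyp2e1, whose product oxidises ethanol, acetone and small solvents, had 11.48, 11.15 and 11.44, the arrays lying within 0.33 log2 units of each other (5.02 above background, limma adjusted p = 5.02e-07). Cyp2d26 stood at 9.82, 9.63 and 8.21, more than 1 log2 unit lower in replicate 5 than on the other arrays. Cyp2d12 had 6.22, 7.88 and 7.55, lowest in replicate 2, where it was barely over the level. Cyp2d22 had 7.38, 7.33 and 6.84 and Cyp2d40 6.91, 6.62 and 7.43. Cyp2d12, Cyp2d40 and Aldh8a1 were the called genes closest to the threshold (limma adjusted p = 0.0235, 0.0141 and 0.0139). Cyp2d10 was the closest on the other side (6.84, 7.04 and 6.48, limma adjusted p = 0.0663), followed by Cyp4f13 (0.0798) and Cyp27a1 (0.147). Cyp2d37-ps, a pseudogene, and Cyp2d9, Cyp2d11, Cyp2d34 and Cyp2d13 had means from 4.72 to 6.43. Cyp2d12 missed the threshold with replicate 4 left out (limma adjusted p = 0.0997) and with replicate 5 left out (0.0601). Cyp2d22 and Cyp2d40 missed it with replicate 2 left out (limma adjusted p = 0.0557 and 0.0677). Cyp2d10 passed with replicate 5 left out (limma adjusted p = 0.00951) and with genes under the median signal left out (0.024), a filter on the tested signal itself.

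The promoters of Cyp2j5 and Cyp2e1, which were called with each of the olfactory and vomeronasal levels, are shown with that of Cyp2j12, the Cyp2j gene that was not called. Each sequence runs up to the base before the gene's start, from RefSeq, read 5′ to 3′ on the gene's strand in build GRCm38.p6. They lie at chr4:96664120-96664369 (minus strand) for Cyp2j5, chr7:140763569-140763818 (plus strand) for Cyp2e1 and chr4:96141153-96141402 (minus strand) for Cyp2j12. Capitals mark AGGTCA, the core site of nuclear receptors, TATAAA, the TATA box, and GTTAAT, part of the site of the tubular factor HNF1, each searched on both strands.
Cyp2j5: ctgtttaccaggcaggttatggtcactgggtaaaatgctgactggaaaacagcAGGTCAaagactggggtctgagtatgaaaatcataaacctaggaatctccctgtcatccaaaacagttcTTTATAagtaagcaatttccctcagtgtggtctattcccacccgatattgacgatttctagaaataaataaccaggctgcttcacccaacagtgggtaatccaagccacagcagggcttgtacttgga
Cyp2e1: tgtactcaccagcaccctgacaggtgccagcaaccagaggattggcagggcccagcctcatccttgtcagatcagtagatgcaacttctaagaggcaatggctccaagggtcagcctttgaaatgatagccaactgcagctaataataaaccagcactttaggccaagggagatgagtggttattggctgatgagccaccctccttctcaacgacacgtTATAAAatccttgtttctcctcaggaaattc
Cyp2j12: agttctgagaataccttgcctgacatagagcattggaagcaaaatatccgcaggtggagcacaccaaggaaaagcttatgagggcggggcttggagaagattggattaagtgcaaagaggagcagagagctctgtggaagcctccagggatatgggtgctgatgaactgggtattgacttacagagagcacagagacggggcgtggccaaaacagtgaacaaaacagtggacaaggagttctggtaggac
Counted from the start, Cyp2e1 carried TATAAA at -31, and Cyp2j5 carried AGGTCA at -197 and the reverse complement of TATAAA at -128. Cyp2j12 held none of the 3 motifs. The Cyp2j5 window was 47.5% identical to that of Cyp2j12 in a global alignment and 44.7% identical to that of Cyp2e1. The windows of Cyp2j12 and Cyp2e1 were 49.1% identical, so the Cyp2j pair was not the most alike. AGGTCA occurred in the windows of 7 of 35 called genes with a promoter in the table (20.0%), in 22 of 90 genes not called (24.4%) and in 14% of all 32851 promoters. For GTTAAT the shares were 11.4%, 10.0% and 6.43%, and for TATAAA 20.0%, 30.0% and 12.4%. An enzyme gene was counted where any of its promoters held the motif, while all promoters were counted singly, so these shares cannot be compared directly. These are counts of letters and say nothing of whether a factor binds.

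Among the Cyp4 genes, whose products hydroxylate the end of fatty acid chains, 6 of 16 were called (37.5%), close to the 37.3% of all genes. Only some of these enzymes make the vasoconstrictor hydroxy acid of arachidonate. All 5 Cyp4a genes and Cyp4b1 passed, and none of the 9 Cyp4f genes did. Cyp4b1 had 10.79, 10.72 and 9.97 (4.15 above background, limma adjusted p = 6.83e-06). Cyp4a14 stood at 9.71, 9.52 and 10.37 and was highest in replicate 5. Cyp4a12a and Cyp4a12b, near-identical genes known to be expressed under androgen control in male mouse kidney, were both called. Cyp4a12a had 8.67, 8.62 and 7.19 and Cyp4a12b had 8.30, 9.05 and 7.77, both lowest in replicate 5. Cyp4a31 had 7.29, 9.46 and 8.57 and Cyp4a10 had 7.35, 8.59 and 8.17, both lowest in replicate 2. The Cyp4a genes thus differed in which array was lowest, and 4 of the 5 differed by more than 1 log2 unit between arrays. Of the Cyp4f genes, a subfamily known for inactivating leukotrienes, those with means above the level were Cyp4f13 (6.65, 6.57 and 6.77, limma adjusted p = 0.0798) and Cyp4f16 (6.36, 6.97 and 6.39, limma adjusted p = 0.271). Cyp4x1 was under the level on every array, at 4.46, 4.27 and 4.55. The calls of these genes rest on the level. With the 99th percentile of olfactory receptor genes Cyp4a31, Cyp4a12a and Cyp4a10 missed the threshold (limma adjusted p = 0.0532, 0.0923 and 0.0593). With the vomeronasal level Cyp4f13, Cyp4f16 and the pseudogene Cyp4f41-ps passed it, and Cyp4f13 also did with genes under the median signal left out (limma adjusted p = 0.0344). That filter acts on the tested signal itself.

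The 5 P450s of steroid hormone synthesis among these genes all had means under background, and Cyp19a1 is not among them. Cyp11a1, which cuts the side chain of cholesterol, had 5.25, 5.09 and 4.84, Cyp17a1 4.72, 4.91 and 4.64 and Cyp21a1 4.82, 5.08 and 4.94. Cyp11b1, which makes corticosterone, had 5.33, 5.17 and 5.52, and Cyp11b2, the aldosterone synthase downstream of angiotensin II, 5.41, 5.60 and 5.97. None of the 5 came above the level on any array. Of 7 genes of sterol and bile acid metabolism 2 were called (28.6%, against 37.3% of all genes). Cyp51, the lanosterol demethylase of cholesterol synthesis, had 7.38, 7.99 and 7.53 (limma adjusted p = 0.000945), and Cyp39a1, an oxysterol hydroxylase, 8.16, 7.95 and 7.23 (limma adjusted p = 0.00176). Cyp27a1, the mitochondrial sterol hydroxylase, was close to the level with 6.62, 6.62 and 6.58. The other oxysterol enzymes Cyp7b1 (5.33 ± 0.02) and Cyp46a1 (5.88 ± 0.13) and the bile acid enzymes Cyp8b1 (5.57 ± 0.06) and Cyp7a1 (4.46 ± 0.22) had means under it. These calls rest on the level too. With the 99th percentile of olfactory receptor genes Cyp51 and Cyp39a1 missed the threshold (limma adjusted p = 0.21 and 0.169). With the vomeronasal level Cyp27a1 and Cyp46a1 passed it (limma adjusted p = 0.000107 and 0.0104).

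The vitamin D and retinoic acid P450s among these genes, which do not include Cyp24a1, were not called either. Cyp27b1, which makes active vitamin D in the proximal tubule, had 5.69, 5.76 and 5.95, and Cyp2r1, which carries out the preceding step in liver, 4.70, 4.12 and 4.45. The retinoic acid hydroxylases stood at 4.68, 4.86 and 4.85 (Cyp26a1), 6.09, 5.99 and 6.06 (Cyp26b1) and 6.19, 6.50 and 5.96 (Cyp26c1), of which only Cyp26c1 in replicate 4 lay over the level. All 9 Cyp1 and Cyp3 genes, the classical dioxin- and drug-inducible enzymes, had means under the level. Cyp1b1 had 6.13, 6.42 and 5.99, above the level in replicate 4 only, Cyp1a1 had 4.49, 4.75 and 4.75 and Cyp3a11, the main Cyp3a of mouse liver, 3.46, 3.33 and 3.53. The 14 remaining Cyp2 genes had means from 3.75 (Cyp2a22) to 6.14 (Cyp2b23), with none called. Cyp20a1, an orphan enzyme without a known substrate, was called with 8.39, 8.72 and 7.87 (limma adjusted p = 0.000308). With the level from vomeronasal receptor genes, where 65.9% of all genes passed, Cyp27b1, Cyp26b1 and Cyp26c1 were called (limma adjusted p = 0.0197, 0.00164 and 0.00206). So were Cyp1b1 (limma adjusted p = 0.00174), Cyp2b23, Cyp2f2, Cyp2s1 and Cyp2u1.

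**Figure D2:**
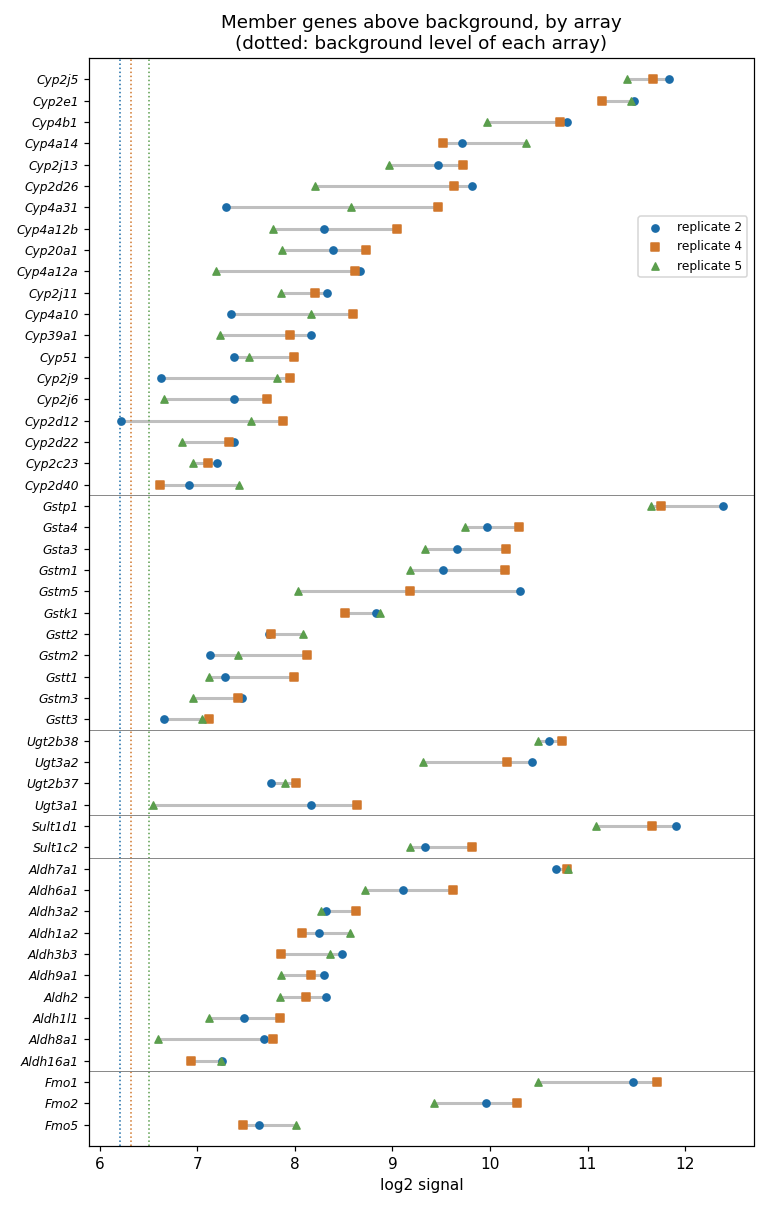
Log2 signal (x axis) of the 50 called genes (y axis) on each array, with replicates 2, 4 and 5 as circles, squares and triangles and the grey bar from the lowest to the highest array. Dotted lines are the background levels of 6.20, 6.32 and 6.50. Gene families are parted by horizontal lines, and 32 of the 50 genes are lowest in replicate 5.

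Glutathione transferases were called in 11 of 20 cases, from each of the alpha, mu, pi, theta and kappa classes. Gstp1, the pi class enzyme, had 12.39, 11.76 and 11.65 (5.59 above background, limma adjusted p = 5.56e-07), while its paralogue Gstp3 was under the level (5.61, 5.42 and 5.65). Both alpha genes were called, Gsta4, which removes the lipid peroxidation product hydroxynonenal, with 9.97, 10.30 and 9.74 and Gsta3 with 9.66, 10.16 and 9.33. Of 7 mu genes 4 passed. Gstm1 had 9.52, 10.16 and 9.18 and was highest in replicate 4, while Gstm5 had 10.30, 9.18 and 8.03, a difference of 2.27 log2 units between replicates 2 and 5. Gstm2 (7.56 ± 0.51) and Gstm3 (7.28 ± 0.28) were also called, Gstm7 (6.49 ± 0.25) was close to the level, and Gstm4 (5.50 ± 0.59) and Gstm6 (4.76 ± 0.17) lay under it. The mu genes are close paralogues, so their signals may be shared. The second probe set of Gstm3 had a mean of 6.08, and with the mean of its probe sets Gstm3 was not called (limma adjusted p = 0.0895).

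In the theta class 3 of 4 genes passed, Gstt2 with 7.73, 7.75 and 8.09, Gstt1 with 7.29, 7.995 and 7.12 and Gstt3 with 6.65, 7.12 and 7.05, and Gstt4 did not (5.31 ± 0.21). Gstt3 missed the threshold with replicate 4 left out (limma adjusted p = 0.109). Gstk1, the kappa enzyme of mitochondria and peroxisomes, had 8.83, 8.51 and 8.87, its arrays within 0.36 log2 units. Gstz1, which serves tyrosine breakdown, was above the level in replicates 2 and 4 and under it in replicate 5 (7.47, 7.11 and 5.81, limma adjusted p = 0.242), and it was called with replicate 5 left out (limma adjusted p = 0.00245). The omega genes Gsto1 (6.55, 6.81 and 5.84) and Gsto2 (5.86 ± 0.06) and Gstcd (5.63 ± 0.13) did not pass.

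Of the glucuronosyltransferase family 4 of 10 genes were called, 2 of 8 Ugt2 genes and both Ugt3 genes. Ugt2b38 had 10.60, 10.74 and 10.49, the arrays within 0.25 log2 units (4.27 above background, limma adjusted p = 1.91e-06), and Ugt2b37 7.75, 8.01 and 7.90. Ugt2 enzymes are known to conjugate steroids and bile acids. The 6 other Ugt2 genes had means under the level, from Ugt2b5 (6.42, 5.51 and 5.65) and Ugt2b34 (6.27, 5.79 and 5.50), which each passed it in replicate 2 only, down to Ugt2b35 (3.58, 3.55 and 3.66). Ugt3a2 stood at 10.43, 10.17 and 9.31 and Ugt3a1 at 8.16, 8.64 and 6.55. The human counterparts of these enzymes use other sugars than glucuronic acid. In replicate 5 Ugt3a1 was close to the level, and without replicate 2 it was not called (limma adjusted p = 0.079).

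Sulfotransferases were called in 2 of 16 cases. Sult1d1, which sulfates catecholamines and other phenols in rodents, had 11.91, 11.66 and 11.09 (5.21 above background, limma adjusted p = 1.1e-06), and Sult1c2 9.33, 9.82 and 9.18. Both were lowest in replicate 5. Sult1a1, the phenol sulfotransferase, lay at the level with 6.33, 6.14 and 6.50. The other 13 had means from 3.16 (Sult3a2) to 5.67 (Sult5a1), among them the oestrogen sulfotransferase Sult1e1 (3.25, 3.48 and 3.42) and the steroid and bile acid genes Sult2a3 (3.54 ± 0.25), Sult2a6 (3.26 ± 0.06) and Sult2a8 (3.56 ± 0.10).

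Aldehyde dehydrogenases of amino acid, folate and related pathways were called in 6 of 10 cases (60.0%, against 37.3% of all genes). Aldh7a1, which acts in lysine breakdown and on betaine aldehyde, had 10.67, 10.79 and 10.80, the arrays within 0.13 log2 units (limma adjusted p = 1.18e-06). Aldh6a1, the valine pathway enzyme, had 9.11, 9.62 and 8.72, and Aldh9a1, which serves carnitine synthesis, 8.29, 8.16 and 7.86. Aldh1l1, the folate enzyme formyltetrahydrofolate dehydrogenase, had 7.48, 7.84 and 7.12, Aldh8a1 7.68, 7.78 and 6.59 and Aldh16a1 7.25, 6.93 and 7.24. Aldh8a1 was not called without replicate 2 (limma adjusted p = 0.0908). The proline enzymes Aldh18a1 (6.54, 6.92 and 6.41) and Aldh4a1 (6.72, 6.99 and 6.16) were above the level in replicates 2 and 4 and under it in replicate 5, and missed the threshold (limma adjusted p = 0.176 and 0.264). With replicate 5 left out both were called (limma adjusted p = 0.0416 and 0.017). Aldh5a1 (5.97 ± 0.17) and Aldh1l2 (5.61 ± 0.28) had means under it.

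Of the enzymes of acetaldehyde and fatty aldehydes 3 of 7 passed (42.9%, against 37.3% of all genes). Aldh3a2, the fatty aldehyde dehydrogenase, had 8.32, 8.63 and 8.27 and Aldh2, the mitochondrial enzyme that clears acetaldehyde, 8.32, 8.12 and 7.84. Aldh3b3 had 8.48, 7.86 and 8.36 on its brightest probe set, but the other probe sets of the gene had means of 5.91 and 3.73, and their mean put it under the level. Aldh3b2 (6.38 ± 0.22), Aldh1b1 (6.06 ± 0.40), Aldh3b1 (6.004 ± 0.06) and Aldh3a1 (5.57 ± 0.15) were not called. Among the 4 Aldh1a genes, most of which encode the retinaldehyde dehydrogenases that make retinoic acid, Aldh1a2 passed with 8.25, 8.07 and 8.56 (limma adjusted p = 0.000123). Aldh1a1 (6.33, 6.93 and 6.36), Aldh1a3 (5.91, 5.86 and 6.28) and Aldh1a7 (5.79, 6.16 and 6.11) did not.

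Flavin monooxygenases were called in 3 of 5 cases. Fmo1, the main form of mouse kidney, had 11.46, 11.72 and 10.50 (4.88 above background, limma adjusted p = 4.12e-06). Fmo2 stood at 9.96, 10.28 and 9.42 and Fmo5 at 7.63, 7.47 and 8.01. Fmo1 and Fmo2 were lowest in replicate 5 and Fmo5 was highest there. Fmo4 (5.87, 6.76 and 6.21) passed the level in replicate 4 only, and Fmo9 (5.14, 5.27 and 5.46) on no array.

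Genes that serve these enzymes were taken from lists. All 10 genes of cofactor supply passed, against the 37.3% of all genes, among them Ugp2 (10.17, 9.95 and 9.85) and Ugdh (8.05, 7.98 and 8.01), which lead to UDP-glucuronic acid. Of the genes for the sulfate donor, Papss2 had 9.50, 9.02 and 7.96 and Papss1 7.22, 6.87 and 7.52. Gclc, of glutathione synthesis, had 8.80, 8.98 and 8.87. Bpnt1, which clears the by-product of sulfation, had 9.62, 9.49 and 7.58, so that Papss2 and Bpnt1 were each more than 1 log2 unit lower in replicate 5 than in replicates 2 and 4. Of 6 electron donor genes 5 passed (83.3%), among them the cytochrome b5 gene Cyb5a (10.95, 10.96 and 9.87) and Fdx1, the ferredoxin of mitochondrial P450s (10.68, 10.52 and 10.90), while Cyb5r1 (6.36 ± 0.17) did not. The P450 reductase gene Por was not analysed here.

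Among 12 regulators 6 passed. They included Nfe2l2, which encodes NRF2, a transcription factor of the oxidant response (10.18, 10.27 and 9.82), and the tubular factor Hnf4a (8.99, 8.56 and 7.85). The others were the bile acid receptor Nr1h4 (9.23, 8.52 and 7.42), the vitamin D receptor Vdr (8.61, 8.80 and 7.03), Arnt (8.07 ± 0.15) and Rxra (7.21 ± 0.36). Keap1 had 7.15, 6.89 and 6.36 and was not called (limma adjusted p = 0.0927). Ahr, Nr1i2, Nr1i3 and Ppara, receptors known to induce genes of the Cyp1, Cyp3a, Cyp2b or Cyp4a groups, were not called. Ahr had 6.52, 6.43 and 6.81 (limma adjusted p = 0.154), Nr1i2 (PXR) 5.42, 6.21 and 5.68, Nr1i3 (CAR) 5.62, 5.75 and 6.03 and Ppara 6.59, 7.06 and 6.28 (limma adjusted p = 0.206). Ahrr, the repressor of Ahr, had a mean under the level (4.85 ± 0.22). Other conjugation and detoxifying enzymes passed in 17 of 21 cases (81.0%), with Akr1a1 at 12.39, 12.32 and 12.07, Adh1 at 11.25, 11.94 and 11.002, Acsm2 at 11.10, 11.20 and 10.76 and Ces1f at 10.61, 10.65 and 10.26, while Nat1 had a mean under the level (4.11 ± 0.15). The epoxide hydrolases Ephx1 (9.46, 8.86 and 8.63) and Ephx2 (8.49, 8.05 and 7.83), the second of which opens the epoxides of arachidonate, were both called. Of 16 transporters 8 passed, among them the efflux pumps Abcg2 (10.69, 10.83 and 10.59) and Abcc2 (9.12, 9.76 and 9.06). The organic anion and cation carriers Slc22a8 (9.98, 10.24 and 9.86) and Slc22a2 (9.87, 9.25 and 9.05) passed as well, and Slco4c1 had a mean under the level (4.85 ± 0.20). Acsm2, Slc22a6, Slc22a7 and Slc22a8 are also in the proximal tubule list, and Fdx1 is in the adrenal one.

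**Figure D3:**
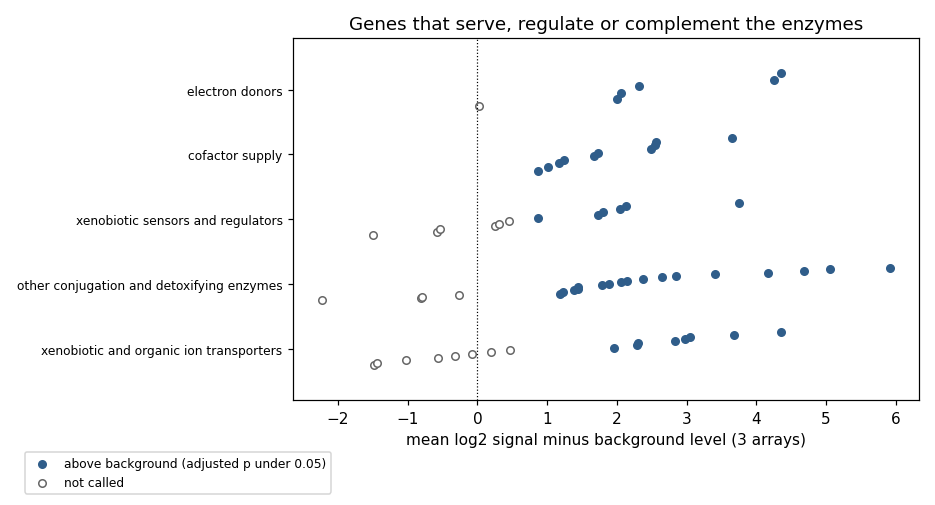
Mean log2 signal minus background level over the 3 arrays (x axis) for the genes of 5 lists that serve, regulate or complement the enzymes (y axis). Filled points were called by limma and open points were not. All 10 genes of cofactor supply lie to the right of the dotted background line.

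How far the arrays differed in these enzymes was described without a test, which 1 array against the others does not allow. Among the 50 called genes, 13 (26%) differed by more than 1 log2 unit between the highest and lowest array, against 13.7% of all called genes. Proximal tubule markers did so in 5 of 17 called cases (29.4%), thick ascending limb markers in 3 of 6, collecting duct markers in 4 of 9, endothelial markers in 5 of 5 and smooth muscle and mural markers in 0 of 9. The 13 genes were Cyp4a31, Cyp4a12b, Cyp4a12a, Cyp4a10, Cyp2j9, Cyp2j6, Cyp2d26, Cyp2d12, Gstm5, Ugt3a2, Ugt3a1, Aldh8a1 and Fmo1. Of these, 9 were lowest in replicate 5 and 4 in replicate 2.

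Replicate 5 was the lowest array for 32 of the 50 called genes (64%), against 52.8% of all called genes, and the highest for 7, against 20.8%. The median difference of replicate 5 from the mean of the other arrays was -0.40 over the 50 genes and -0.19 over all called genes. Of the proximal tubule markers 13 of 17 were lowest in replicate 5, with a median difference of -0.45, and their summed signal over the 19 measured was 14.98 on the log2 scale in replicate 5, against 15.38 and 15.36 in replicates 2 and 4. The summed signal of the 159 enzymes was 15.07 in replicate 5, against 15.46 and 15.45 in replicates 2 and 4. Such sums are set mostly by the brightest genes. The mean log2 signal of the 159 enzymes was 6.16 in replicate 5, against 6.21 and 6.28 in replicates 2 and 4. For the 19 proximal tubule markers it was 9.574, against 10.165 and 10.064. The median difference in replicate 5 was -0.86 for thick ascending limb, -0.81 for endothelial, -0.15 for renin cell, -0.03 for smooth muscle and mural and 0.00 for collecting duct markers. The enzymes furthest below the other arrays in replicate 5 were Ugt3a1 (-1.86), Gstm5 (-1.71) and Cyp2d26 (-1.51), and those furthest above were Cyp4a14 (0.76), Cyp2d40 (0.66) and Cyp2j9 (0.53). With each array centred on its median over all called genes, the difference over the 50 genes was -0.15. The part of cell content in these differences was not tested.

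Replicate 2 was lowest for 10 of the 50 genes (20.0%), against 21.1% of all called genes. These included the genes furthest below the other arrays there, Cyp4a31 (-1.73), Cyp2d12 (-1.50) and Cyp2j9 (-1.25), followed by Cyp4a10 (-1.03). Only 1 of 17 proximal tubule markers was lowest in replicate 2, whereas 7 of 9 collecting duct markers were, with a median difference of -0.76 and a summed signal of 11.76 on the log2 scale in replicate 2, against 12.25 and 12.21 in replicates 4 and 5. All 3 called macrophage markers were lowest there too, with a median difference of -0.54. Whether these values are linked was not tested. Furthest above the other arrays in replicate 2 were Gstm5 (1.70), Cyp2d26 (0.90) and Cyp4a12a (0.76). Replicate 2 was highest for 18 of the 50 genes, against 43.8% of all called genes. All 5 called endothelial markers were highest there too, with a median difference of 1.86.

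Replicate 4 was the highest array for 25 of the 50 genes (50%), against 35.4% of all called genes, and its median difference from the other arrays was 0.32 over the 50 genes, against 0.06 over all called genes. It was lowest for 8 of the 50, against 26.1% of all called genes. The proximal tubule markers had a median difference of 0.32 there as well, and the thick ascending limb markers one of 0.65. Cyp4a31 (1.53), Ugt3a1 (1.28) and Cyp4a12b (1.01) stood furthest above the other arrays in replicate 4. Furthest below were Aldh3b3 (-0.57), Cyp2d40 (-0.55) and Cyp4a14 (-0.53). With each array centred as above, the difference over the 50 genes in replicate 4 was 0.24.

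**Figure D4:**
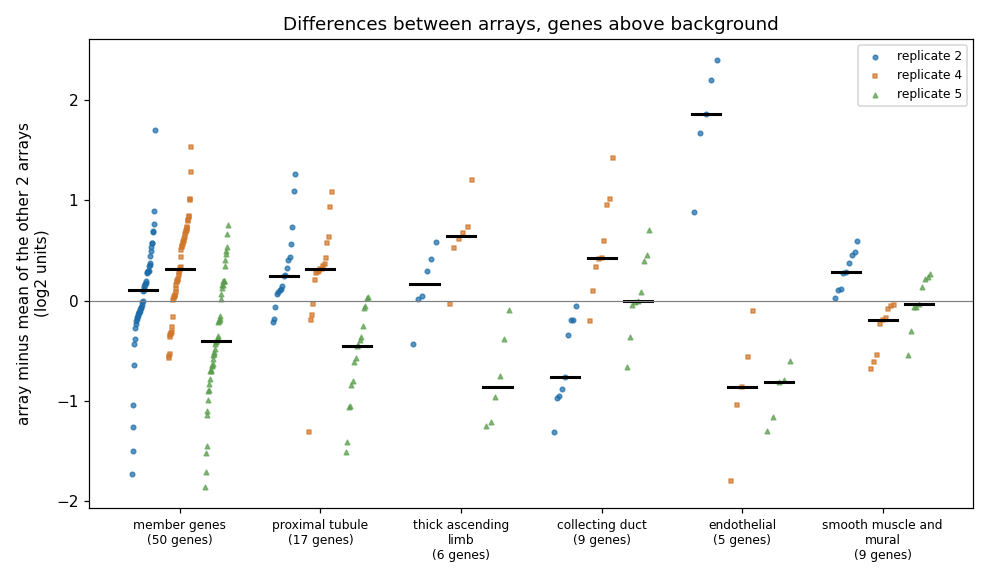
Each array minus the mean of the other arrays, in log2 units (y axis), for the 50 called enzymes and for called markers of 5 cell types (x axis). Each point is a gene, colours and shapes give the array, and the black bar is the median. The medians in replicate 5 are -0.40 for the enzymes, -0.45 for proximal tubule, -0.86 for thick ascending limb and -0.81 for endothelial markers. They are -0.03 for smooth muscle and mural and 0.00 for collecting duct markers. The median over all called genes, not plotted, is -0.19.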

How the data were processed

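The deposited table holds log2 values per probe set from 3 single-colour Affymetrix arrays. The authors processed them with Affymetrix Expression Console, per the submitters' processing notes, and its version and methods of summarising and normalizing were not stated. That the scale is log2 was read from the range of the deposited values (2.21 to 13.96) and their medians of 6.09, 6.11 and 6.21 in replicates 2, 4 and 5, and no scanner values were used. An error in that scale would rescale every difference.

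Gene symbols are those of the platform annotation for 21789 of 35557 probe sets with 1 symbol. The other 1621 had several symbols and 12147 none listed. RefSeq (GRCm38.p6) matched 21698 of the 21789 and changed 0 names. The brightest probe set stood for a gene. For each array the 95th percentile of olfactory receptor genes was subtracted, and an intercept-only model with a variance trend was fitted across 19938 genes in limma 3.58.1 (R 4.3.3), tested one-sided. With this level 2 of 167 vomeronasal receptor genes (1.2%, exact 95% interval 0.145 to 4.26) were called, and so were 22.7% of 44 keratin-associated protein genes (10, interval 11.5 to 37.8). These intervals treat genes as independent, though all were measured on the same 3 arrays, so they do not cover differences between samples. On simulated data of 19938 genes, 74% of those 0.5 log2 units above the level, 94% at 1 and 98% at 2 were called. Among the 9840 given no height above the level, 0.122% were called, and the share just at the level was not tested. Whether these shares hold for the enzymes was not tested. The median SD was 0.406 over the 50 called enzymes, against 0.269 over all called genes. The 3 arrays limit the precision.

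The members and gene lists were chosen with earlier results of these data known. Values by array are given for the brightest and lowest members of each role, those that differed by over 1 log2 unit between arrays, the 3 on each side of the threshold and the 3 furthest from the other arrays, plus further members so that each family is accounted for. Alternatives were other background levels, probe set rules, normalizations, filters, variance models and left-out replicates.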

Additional observations from a re-analysis of the deposited data

How the results depend on the processing

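The background level moved the counts most. With the 99th percentile of olfactory receptor genes 30 enzymes were called (18.9%, with 9 Cyp and 7 Gst), against 3303 of all genes (16.6%). With a level from vomeronasal receptor genes there were 81 (50.9%, with 36 Cyp and 19 Aldh), against 13140 (65.9%). With a level from keratin-associated protein genes, chosen after seeing the data, there were 8 (5.03%, with 3 Cyp and 1 each of Gst, Ugt, Sult, Aldh and Fmo), against 709 (3.56%). The enzymes' share was thus below that of all genes at the 95th percentile and the vomeronasal level, and above it at the 99th percentile and the keratin-associated level. At the 99th percentile Aldh16a1 (-0.064), Cyp2c23 (-0.115), Cyp2d22 (-0.024), Cyp2d40 (-0.219) and Gstt3 (-0.264) had means under the level, and with the mean of probe sets Aldh3b3 did (-0.372). Also lost at the 99th percentile, with means above it, were Aldh1l1, Aldh8a1, Cyp2d12, Cyp2j6, Cyp2j9, Cyp39a1, Cyp51 and Cyp4a10. The same held for Cyp4a12a, Cyp4a31, Fmo5, Gstm2, Gstm3, Gstt1 and Ugt3a1. The mean of probe sets and quantile normalization gave 48 (30.2%) and 50 (31.4%), against 37.1% and 37.7% of all genes. Without a variance trend there were 50 (31.4%), against 37.3%. Leaving out genes under the median gave 52 of the 62 enzymes that remained (83.9%), against 81% of all genes that remained. This filter used the same mean signal that was then tested, so a high share called follows from it. It is no separate check of the counts, nor of the calls gained with it (Cyp2d10 and Cyp4f13). Leaving out 1 replicate gave 45 to 53 enzymes (17 to 20 Cyp, 10 to 12 Gst, 3 to 4 Ugt, 2 Sult, 9 to 12 Aldh, 3 Fmo). The share called was 28.3%, 29.6% and 33.3% without replicates 2, 4 and 5, against 30.3%, 32.1% and 39.2% of all genes. Of the 50 called enzymes 29 were called under each of 9 other settings, the keratin-associated level not among them.

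The median difference of replicate 2 from the other arrays turned from 0.10 to -0.037 with quantile normalization and to -0.063 with arrays centred on all called genes. That of replicate 4 was 0.21 and 0.24, and that of replicate 5 -0.18 and -0.15. No paired analysis was possible because the series has only 1 group. The cause of these changes was not tested, and 3 arrays without a control group limit every value.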

Other observations

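The 20 probe sets of these families that carry several symbols were left out above, and their values are given here without a test. Of them, 11 were above the background level on all 3 arrays, and the share over all probe sets with several symbols was not counted. The 4 probe sets shared by Gsta1, Gsta2, Gm10639 and Gm3776, alpha glutathione transferases and their copies, had means from 11.73 to 12.08, each lowest in replicate 5. The pair shared by Gstp1 and Gstp2 had means of 9.47 each. A probe set shared by the fatty acid hydroxylases Cyp4a10, Cyp4a31 and Cyp4a32 had 9.38, 9.98 and 9.87 in replicates 2, 4 and 5, lowest in replicate 2 as were Cyp4a10 and Cyp4a31 on their own probe sets. Those shared by Ugt3a1 and Ugt3a2 had means of 9.21 and 8.69 and were lowest in replicate 5. The probe set shared by Cyp2a4 and Cyp2a5, which act on testosterone and coumarin, had 7.93, 8.17 and 7.53, whereas Cyp2a12 and Cyp2a22 were under the level on every array. The Ugt1a probe set, which stands for the bilirubin and phenol glucuronosyltransferases made from a single locus, had 6.89, 7.09 and 6.98, above the level on each array. The probe sets shared by Cyp3a genes (4.24, 4.17 and 3.44 on average) and by Sult2a genes (3.51 and 3.44) were under it, as were the Cyp3a and Sult2a genes with probe sets of their own.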
